A study of Homo sapiens with 6 samples.

Results

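Small nucleolar RNA (snoRNA) host genes are transcribed into spliced RNAs whose introns carry snoRNAs. Here they were taken from the deposited count table as every gene whose symbol is SNHG followed by a number, together with GAS5, ZFAS1, EPB41L4A-AS1, DANCR and MEG8. This gave 31 genes of the 30651 listed. Of these, 29 had enough reads to be tested. MEG8 and SNHG27 did not, with 2 and 1 reads in all 6 libraries together. RNA came from PC-3, a cell line grown from a bone metastasis of human prostate cancer, in 3 libraries of a control group (Ctrl) and 3 of a group named MTA1. MTA1 encodes a component of NuRD, a complex that remodels nucleosomes and deacetylates histones. In the file headers the columns of its group begin with sh, as short hairpin RNAs usually do. The labels mention lentivirus and the screening of stable clones. They do not say how many hairpins or clones were used, what the Ctrl cells carried, or whether the libraries were separate cultures. All p-values thus rest on the spread among these libraries alone, and that spread may be technical. The labels state no purpose for this gene group, and each gene was compared between the MTA1 and Ctrl libraries and set beside the ribosomal protein genes.

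After splicing, the host introns are trimmed to mature snoRNAs. C/D snoRNAs guide methylation of ribosomal RNA, H/ACA snoRNAs guide its pseudouridylation, and the related scaRNAs act on spliceosomal RNAs in Cajal bodies. The spliced host RNA often has no long reading frame, and many are short-lived because translating ribosomes expose them to nonsense-mediated decay (NMD). Several host genes start transcription in a run of pyrimidines, the terminal oligopyrimidine (TOP) motif, which they share with ribosomal protein genes.

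The libraries held 29909172 to 33849262 reads. MTA1 itself fell from 40.0 ± 1.47 to 17.4 ± 0.660 CPM (SD, n = 3), a log2 fold change of -1.21 ± 0.054 (SE). CPM here are reads divided by the library size scaled by TMM, in the usual unit, and log2 fold changes are of MTA1 over Ctrl. Of 15423 tested genes, 58.1% passed edgeR's quasi-likelihood test at a Benjamini-Hochberg adjusted p under 0.05, 29.5% higher and 28.6% lower. A list of 10 genes known in PC-3 cells, epithelial and mesenchymal ones and some expected low, summed to 4398 to 4615 CPM in Ctrl and 4490 to 4794 CPM in MTA1, and of its 9 tested genes 5 rose and 2 fell. The keratin genes KRT8 (1886 and 1541 CPM) and KRT18 (1343 and 1267 CPM) were the most abundant of it. PC-3 cells are described as lacking alpha-catenin (CTNNA1), yet CTNNA1 had 145 and 192 CPM, and the counts do not say from which exons. Fibroblast markers (8 of 8 listed, none at 0) summed to 49.6 to 55.4 CPM in Ctrl and 37.5 to 40.1 CPM in MTA1, with COL1A1 and LUM the most abundant. Leukocyte and blood markers summed to 1.55 to 2.44 and 1.26 to 1.67 CPM with CD3E at 0, and HEK293 markers to 0.794 to 1.46 and 0.568 to 0.853 CPM. The part of these marker levels in the results was not tested.

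The host genes split. Of the 29 tested, 12 rose, 8 fell and 9 did not pass, so 69.0% passed against 58.1% of all tested genes and 43.4% of 1862 long non-coding RNA genes (18.3% higher and 25.1% lower). Among genes at 10 CPM or more the order was the other way, with 64.7% of 17 host genes against 72.4% of all tested genes. Each of the 29 reached the filter on low counts in the 3 libraries of either group alone. Their median log2 fold change was 0.02, against 0.002 for all tested genes. SNHG1, SNHG11, SNHG25, SNHG5, SNHG15 and SNHG12 rose by 1.5-fold or more, whereas no host gene fell by as much. The log2 fold changes of the 29 genes had an SD of 0.47, against 0.25 among the 79 ribosomal protein genes. All tested genes (0.55) and long non-coding RNA genes (0.68) were spread more widely than the host genes. The CPM of the groups did not overlap for 21 of the 29 (72.4%), against 62.7% of all tested genes. In RNA from a bulk culture, less RNA in every cell and fewer cells that hold it cannot be told apart.

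**Figure D1:**
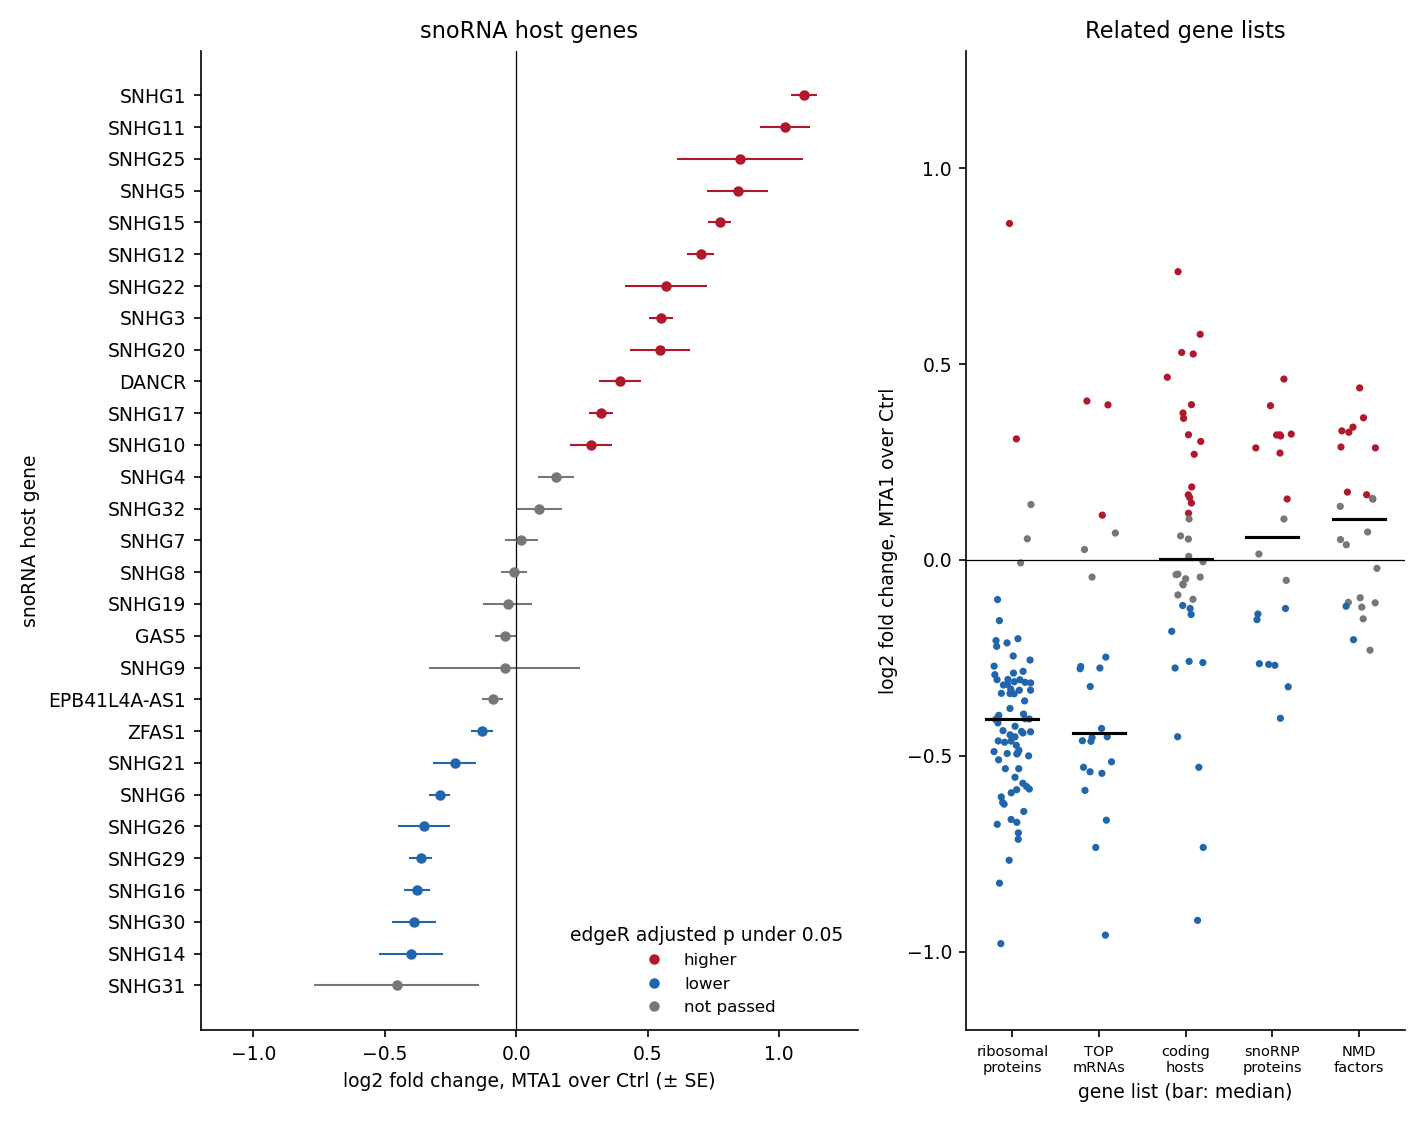
Log2 fold changes of MTA1 over Ctrl. Left, the 29 tested snoRNA host genes with SE bars, coloured by the edgeR call; right, each gene of 5 related lists as a point with the list's median as a bar. The host genes ran from -0.45 (SNHG31) to 1.09 (SNHG1), while 74 of the 79 ribosomal protein genes were lower.

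SNHG1, the host of 8 C/D snoRNAs from SNORD22 to SNORD31, rose most. Its level was 24.6, 25.7 and 25.4 CPM in Ctrl replicates 1, 2 and 3, and 55.1, 52.6 and 54.0 CPM in the MTA1 replicates. Every MTA1 library was above every Ctrl library by more than the spread within either group. The rise was 2.14-fold (log2 fold change 1.09 ± 0.049, edgeR adjusted p = 3.8e-13). SNHG1 starts back to back with SLC3A2, the heavy chain of amino acid transporters, which also rose (0.49 ± 0.043). SNHG15, the host of the H/ACA snoRNA SNORA9, had 48.6, 47.1 and 48.7 CPM in Ctrl and 85.1, 80.3 and 81.6 CPM in MTA1. The groups were far apart, at 1.71-fold (0.77 ± 0.044, adjusted p = 1.3e-11).

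SNHG12, which carries SNORD99 and 3 H/ACA snoRNAs, had 41.9, 39.1 and 39.1 CPM in Ctrl and 67.8, 66.2 and 61.3 CPM in MTA1. It rose 1.63-fold (0.70 ± 0.051, adjusted p = 4e-10). TRNAU1AP, a selenocysteine tRNA-associated protein gene that overlaps SNHG12 on the opposite strand, moved the other way (-0.73 ± 0.050). SNHG3 carries SNORA73A and SNORA73B, the U17 snoRNAs that act in ribosomal RNA cleavage. It stood at 40.3, 39.2 and 39.5 CPM in Ctrl and at 59.8, 56.0 and 58.6 CPM in MTA1, with no overlap. The rise was 1.47-fold (0.55 ± 0.047, adjusted p = 4.4e-09), while RCC1, which overlaps it on the same strand, fell by 0.14 on the log2 scale, a call that was lost with library size as the only scaling. Since the counting of shared or overlapping exons is not stated, the values of SNHG12 and SNHG3 are uncertain to the extent that reads of these neighbours were assigned to them.

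SNHG17, the host of the SNORA71 family, rose by less. It had 81.7, 81.5 and 80.0 CPM in Ctrl and 106.8, 102.1 and 95.3 CPM in MTA1 (0.32 ± 0.046, adjusted p = 4.6e-06). Its MTA1 libraries were more spread than its Ctrl libraries but all above them. SNHG10, the host of SCARNA13, had 9.09, 9.80 and 9.82 CPM in Ctrl and 10.6, 11.7 and 12.8 CPM in MTA1 (0.29 ± 0.080, adjusted p = 0.0046). Here the closest libraries of the groups were less than 1 CPM apart.

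The other 6 genes that rose were under 10 CPM on average. SNHG11, with 2 H/ACA snoRNAs, rose from 5.11, 6.72 and 7.20 CPM in Ctrl to 13.2, 12.3 and 13.3 CPM in MTA1 (1.02 ± 0.096, adjusted p = 1.9e-08). Its lowest MTA1 library lay well above its highest Ctrl library. SNHG5, the host of SNORD50A and SNORD50B, had 4.82, 3.73 and 4.29 CPM in Ctrl and 8.60, 7.85 and 6.54 CPM in MTA1 (0.84 ± 0.12, adjusted p = 3.3e-06). SNHG25, the host of SNORD104, rested on few reads, 30, 22 and 23 in Ctrl and 51, 47 and 33 in MTA1 (0.85 ± 0.24, adjusted p = 0.0049). The scaRNA hosts SNHG22 (0.57 ± 0.16) and SNHG20 (0.55 ± 0.12) rose, and so did DANCR (0.40 ± 0.079), an RNA known for holding epidermal progenitors undifferentiated and the host of SNORA26. The largest adjusted p among the 12 genes that rose was 0.0049.

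Among the genes that fell were abundant members, and their changes were smaller. SNHG6, the host of SNORD87, had 298.6, 301.3 and 307.5 CPM in Ctrl and 238.6, 244.8 and 258.3 CPM in MTA1. The groups were apart by several times their SDs, a fall to 0.817 of the Ctrl level (-0.29 ± 0.041, adjusted p = 3.9e-06). SNHG29, the host of SNORD49A, SNORD49B and SNORD65, fell from 154.3, 161.6 and 173.3 CPM in Ctrl to 126.2, 126.9 and 127.1 CPM in MTA1 (-0.36 ± 0.044, adjusted p = 6e-07). Its Ctrl libraries were spread and its MTA1 libraries nearly equal. SNHG16, the host of SNORD1A, SNORD1B and SNORD1C, had 61.2, 58.9 and 64.5 CPM in Ctrl and 47.1, 45.2 and 49.8 CPM in MTA1 (-0.38 ± 0.050, adjusted p = 2.2e-06).

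ZFAS1, which lies antisense to the start of ZNFX1 and carries the 3 SNORD12 snoRNAs, fell the least of the 8. It had 184.6, 177.6 and 177.8 CPM in Ctrl and 173.8, 161.0 and 158.2 CPM in MTA1 (-0.13 ± 0.043, adjusted p = 0.013). The highest MTA1 library was just under the lowest Ctrl library. The call was lost without MTA1 replicate 2 (adjusted p = 0.077) and with library size as the only scaling (adjusted p = 0.21), while ZNFX1 rose (0.61 ± 0.069). SNHG21, the host of SCARNA15, had 14.3, 12.5 and 12.3 CPM in Ctrl and 12.1, 11.1 and 9.96 CPM in MTA1 (-0.23 ± 0.082, adjusted p = 0.019). Its call was lost without Ctrl replicate 1 (adjusted p = 0.10), without MTA1 replicate 3 (0.098) and with library size as the only scaling (0.090), which left 6 members lower. The remaining genes that fell were SNHG14 (-0.40 ± 0.12), SNHG30 (-0.39 ± 0.084), the host of SNORD7, and SNHG26 (-0.35 ± 0.099), the host of SNORD93. SNHG14 is the long transcript of the imprinted Prader-Willi and Angelman region, runs antisense to UBE3A, and had 85 to 123 reads per library. On log2(FPKM + 0.1), tested with limma, SNHG14 (adjusted p = 0.25), SNHG26 (0.078), SNHG21 (0.11) and ZFAS1 (0.22) did not pass. For SNHG14 this cannot decide, since its deposited FPKM were 0.03 in each Ctrl library and 0.02 in each MTA1 library, below the added 0.1.

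GAS5, a host RNA that accumulates in growth-arrested cells, was the member with most reads and did not pass. It had 331.4, 338.1 and 323.5 CPM in Ctrl and 330.6, 309.6 and 324.8 CPM in MTA1, and the groups overlapped (-0.04 ± 0.040, adjusted p = 0.39). The same held for SNHG8 (-0.01 ± 0.050), SNHG7 (0.02 ± 0.062), SNHG19 (-0.03 ± 0.092) and SNHG32 (0.09 ± 0.088), whose groups overlapped. EPB41L4A-AS1, the host of SNORA13, came close to the threshold. It had 103.7, 101.1 and 101.8 CPM in Ctrl and 97.1, 96.6 and 94.7 CPM in MTA1, without overlap (-0.09 ± 0.040, adjusted p = 0.065). SNHG4 had the same adjusted p in the other direction (0.15 ± 0.068, adjusted p = 0.065), with overlapping groups, and passed without Ctrl replicate 2 (0.046), without MTA1 replicate 3 (0.0066) and with library size only (0.011). SNHG32 passed without Ctrl replicate 1 (0.049). SNHG31 had the lowest log2 fold change of all members (-0.45 ± 0.31, adjusted p = 0.22) on 23, 15 and 16 reads in Ctrl and 13, 15 and 10 in MTA1, and SNHG9 (-0.04 ± 0.29) had 14 to 17 reads per library. A difference was not detectable at this depth in those 2 genes.

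**Figure D2:**
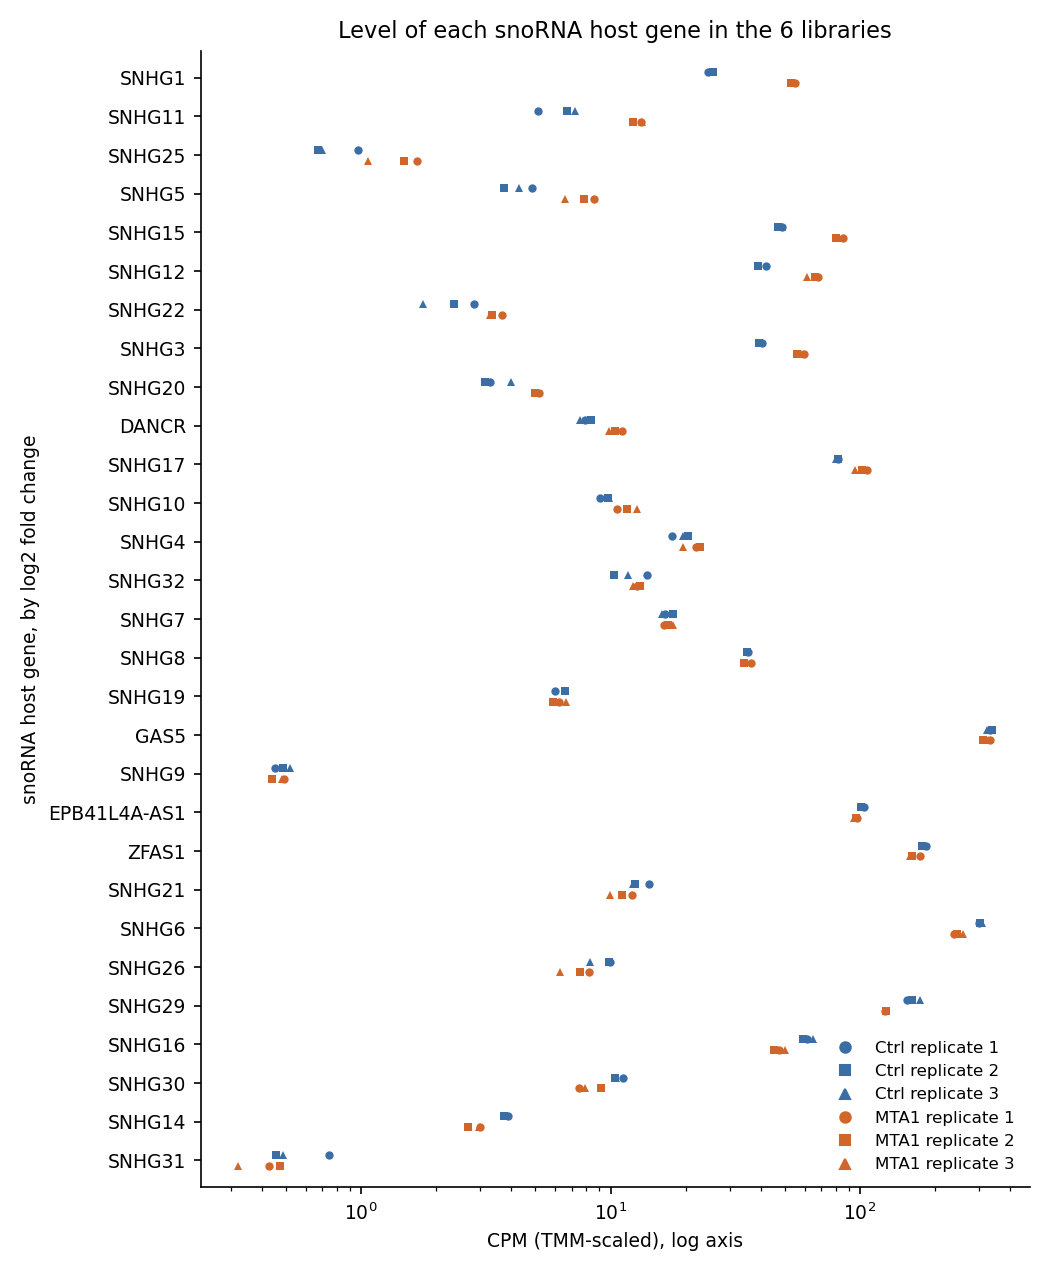
CPM of the 29 tested snoRNA host genes (TMM-scaled, log axis) in each of the 6 libraries, ordered by log2 fold change from the highest at the top. Symbols stand for replicate numbers; at SNHG1 the orange MTA1 points (52.6 to 55.1 CPM) lie clear of the blue Ctrl points (24.6 to 25.7 CPM), and at GAS5 the groups overlap.

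Levels of different genes were compared on the deposited FPKM, which are scaled for gene length. SNHG6 was first in both groups, with 209 FPKM in Ctrl and 179 in MTA1, followed by GAS5 (59.0 and 60.1) and EPB41L4A-AS1 (22.6 and 22.3). Below them the order changed. SNHG15 went from the eighth place (10.5 FPKM in Ctrl) to the fourth (18.9 in MTA1), SNHG1 from the 15th (5.49) to the 10th (12.3), and SNHG29 from the fourth (19.6) to the seventh (15.98). These orders rest on the length that the authors used for each gene. The ratio of counts to FPKM implied 1.41 kb for SNHG6, 5.47 kb for GAS5, 14.3 kb for SNHG5 and 132 kb for SNHG14. A longer model gives a lower FPKM for the same reads.

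Since genes moved both ways, the summed TMM-scaled level stayed close while its makeup shifted. The closeness depends on the scaling, since the members' share of unscaled reads, given below, was higher in each MTA1 library. All 31 members summed to 1535, 1534 and 1541 CPM in Ctrl and 1568, 1518 and 1534 CPM in MTA1, and the groups overlapped. The 12 genes that rose summed to 271, 267 and 268 CPM in Ctrl and 429, 409 and 403 CPM in MTA1, and the 8 that fell to 738, 736 and 758 against 616, 608 and 621 CPM. These 2 sums follow from the calls and add no test. GAS5, SNHG6, ZFAS1, SNHG29 and EPB41L4A-AS1 held 69.9%, 70.4% and 70.3% of the members' reads in Ctrl and 61.6%, 61.9% and 62.8% in MTA1. For every 100 reads of GAS5 there were 7.42, 7.61 and 7.85 reads of SNHG1 in Ctrl and 16.7, 17.0 and 16.6 in MTA1.

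The ribosomal protein genes moved in 1 direction, which the host genes did not. Of the 79, 74 fell (93.7%, against 28.6% of all tested genes), 2 rose and 3 did not pass, RPL10 and RPL41 among them, with a median of -0.41. RPL12, a protein of the large subunit, fell from 5337 ± 118 to 2707 ± 150 CPM (-0.98 ± 0.046), and RPL32 (-0.83 ± 0.040) and RPL13 (-0.66 ± 0.039) fell too. The 2 that rose, RPS10 (1.43 to 2.60 CPM) and RPL17 (8.23 to 10.2 CPM), have exons in common with annotated read-through genes, so their counts are uncertain. The 79 genes took 13.9%, 13.8% and 13.8% of all reads in Ctrl and 10.4%, 10.4% and 10.1% in MTA1. The members took 0.1495%, 0.1506% and 0.1498% in Ctrl and 0.160%, 0.156% and 0.157% in MTA1. Per 100 ribosomal protein reads there were 1.08, 1.09 and 1.08 reads of host genes in Ctrl and 1.53, 1.50 and 1.55 in MTA1, without overlap. Reads of mitochondrially encoded genes moved with these shares, from 5.31% to 5.81% of reads in Ctrl to 7.10% to 7.77% in MTA1. Without those reads the members took 0.159 ± 0.000904% in Ctrl and 0.170 ± 0.00260% in MTA1, and with the ribosomal protein genes left out of the fit 12 members were still higher and 8 lower.

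**Figure D3:**
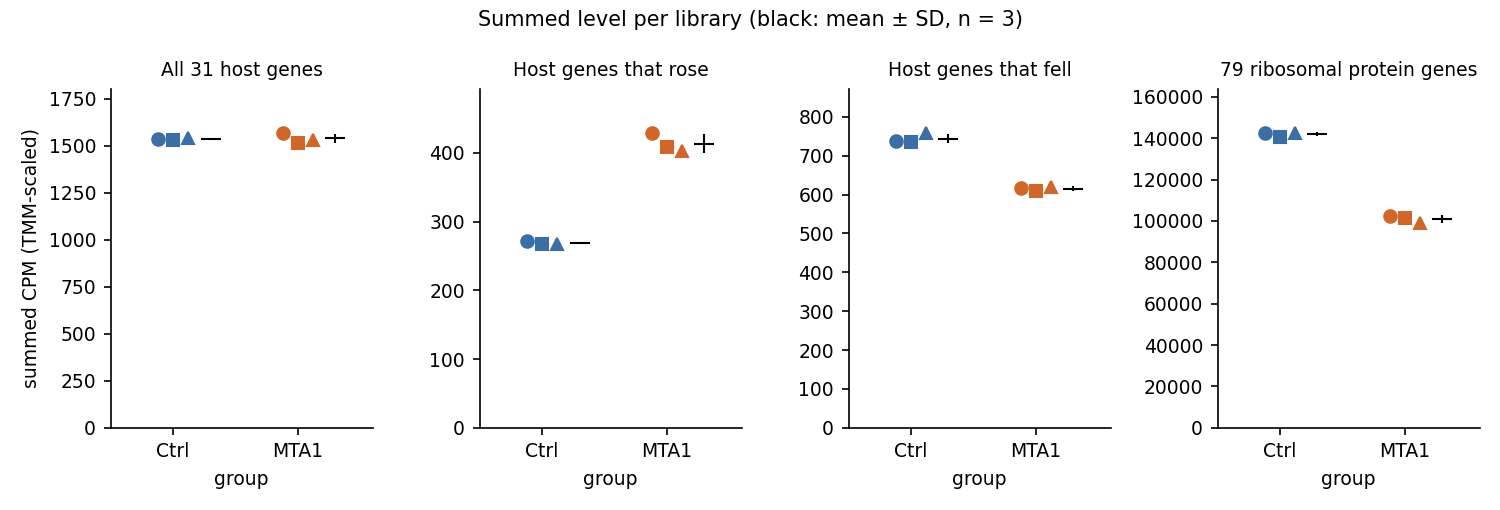
Summed CPM (TMM-scaled, axes from 0) of all 31 host genes, of the 12 that rose, of the 8 that fell and of the 79 ribosomal protein genes, with 1 point per library and mean ± SD (n = 3) in black. The host genes' sum was 1537 ± 3.98 CPM in Ctrl and 1540 ± 25.4 CPM in MTA1, while the ribosomal protein sum went from 141793 ± 928 to 100937 ± 1756 CPM.

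Ribosomal protein genes can be snoRNA hosts themselves. By position in RefSeq, 29 of the 79 hold a snoRNA gene, and 27 of these fell (median -0.47). Of the 50 without one, 47 fell (median -0.37). Other protein-coding hosts, a list of 40 genes, went both ways like the SNHG genes, with 16 higher, 11 lower and a median of 0.002. The share called was 67.5%, against 58.1% of all tested genes. The translation initiation genes EIF4G1 (0.53 ± 0.040) and EIF4A2 (0.47 ± 0.039) and PTCD3 (0.53 ± 0.048), a mitochondrial ribosome-associated protein, rose. The mitochondrial phosphate carrier SLC25A3 (-0.92 ± 0.043) and TPT1, the translationally controlled tumour protein (-0.73 ± 0.041), fell. Among 24 mRNAs of the translation machinery and others known for TOP starts, 18 fell and 3 rose, with a median of -0.44. Of this list 87.5% was called, against 58.1% of all tested genes and 72.4% of those at 10 CPM or more. Of all tested genes, 28.6% fell. NAP1L1, a nucleosome assembly protein, fell the most firmly (-0.96 ± 0.039), with TPT1 and EIF4B (-0.66 ± 0.038), and PABPC4 (0.40 ± 0.038) and VIM (0.41 ± 0.042) rose.

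The start sites of the host genes were read for the TOP motif, to show how the members differ from ribosomal protein genes there. The motif was scored where the RefSeq start is a C followed by at least 4 bases that are C or T, on the transcribed strand. It was found in 6 of the 26 host genes with an entry (23.1%), SNHG12, SNHG4, SNHG32, SNHG19, SNHG5 and ZFAS1. It was found in 47 of 63 ribosomal protein genes (74.6%), in 11 of 35 protein-coding hosts (31.4%) and in 5.14% of all 27305 genes. A gene was counted if any of its starts matched. Of the 6 host genes, SNHG12 and SNHG5 rose, ZFAS1 fell and 3 did not pass. Of the 47 ribosomal protein genes, 44 fell and 1 rose. TATAA was searched on both strands from 45 to 16 bases before the start, and so never overlaps the TOP motif. It was found in 6 host genes (23.1%) and in 6.34% of all 27305 genes. The windows below run from 50 bases before the start to 50 from it, 5′ to 3′ on the transcribed strand (RefSeq, GRCh38.p14), with TOP runs and TATAA in capitals. Those of SNHG12, SNHG5, ZFAS1, SNHG19 and SNHG4 show the motif in genes with different calls, and SNHG1, SNHG16 and GAS5 show starts without a match.
SNHG12: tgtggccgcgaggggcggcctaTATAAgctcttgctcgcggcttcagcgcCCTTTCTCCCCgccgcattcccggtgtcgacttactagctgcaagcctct
SNHG5: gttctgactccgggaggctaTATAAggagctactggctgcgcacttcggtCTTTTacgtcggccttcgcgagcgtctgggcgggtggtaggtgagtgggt
ZFAS1: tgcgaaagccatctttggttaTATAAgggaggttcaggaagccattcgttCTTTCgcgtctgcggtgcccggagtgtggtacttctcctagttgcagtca
SNHG19: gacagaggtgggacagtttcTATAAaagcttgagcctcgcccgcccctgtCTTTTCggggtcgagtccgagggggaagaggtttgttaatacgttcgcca
SNHG4: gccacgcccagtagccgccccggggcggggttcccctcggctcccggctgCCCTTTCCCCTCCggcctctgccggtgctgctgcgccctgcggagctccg
SNHG1: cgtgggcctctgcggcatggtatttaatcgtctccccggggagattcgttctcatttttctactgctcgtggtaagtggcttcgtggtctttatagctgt
SNHG16: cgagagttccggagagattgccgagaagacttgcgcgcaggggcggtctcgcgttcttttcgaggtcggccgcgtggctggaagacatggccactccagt
GAS5: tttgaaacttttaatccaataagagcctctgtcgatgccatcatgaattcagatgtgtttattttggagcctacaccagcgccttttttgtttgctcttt

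These windows lie at chr1:28581824-28581923 (SNHG12, minus strand), chr6:85678684-85678783 (SNHG5, minus), chr20:49278592-49278691 (ZFAS1, plus) and chr16:2155309-2155408 (SNHG19, minus). The others are at chr5:139274051-139274150 (SNHG4, plus), chr11:62855836-62855935 (SNHG1, minus), chr17:76557714-76557813 (SNHG16, plus) and chr1:173868996-173869095 (GAS5, minus). The starts are those of RefSeq and were not measured in these cells. A window without a match says only that those letters are not at that annotated start.

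The members were then grouped by the class of snoRNA gene that lies inside them in RefSeq, by position and without regard to strand. They hold 187 such genes, 124 of them in SNHG14 and MEG8. Of 12 tested hosts of C/D snoRNAs only, 3 rose and 7 fell (83.3% called, against 58.1% of all tested genes, median -0.21). Of 11 hosts of H/ACA snoRNAs only, 5 rose and 0 fell (45.5% called, median 0.15). Of 4 hosts of scaRNAs only, 3 rose and 1 fell (100% called). At an unadjusted p under 0.05, 1 H/ACA host was lower in edgeR, in DESeq2's Wald test and in limma-voom, EPB41L4A-AS1, and it passed after adjustment in edgeR with DESeq2 size factors (adjusted p = 0.049). In RefSeq, GAS5 and SNHG12 hold both classes. In GENCODE, SNHG25, counted here among the C/D hosts that rose, also holds the H/ACA snoRNA SNORA50C. The difference between classes was not tested, and SNHG1, with the highest fold change, is a C/D host.

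Some snoRNAs have rows of their own in the table, which shows whether host and snoRNA reads moved alike. Their reads were few in these libraries of total RNA, and reads of a mature snoRNA cannot be told apart from those of the unspliced host. Of 141 snoRNA and scaRNA rows, 20 were tested, and 13 were higher and 0 lower in edgeR (65.0% called, against 58.1% of all tested genes). At an unadjusted p under 0.05, 1 row was lower in edgeR and 0 were in DESeq2 and limma-voom. However, 11 of the 20, 9 of the 13 higher ones among them, reached the filter on low counts through their MTA1 libraries alone. Those had to be higher there, and the count supports no direction. Of the 9 rows that reached it in both groups, 4 were higher (SNORD99, SNORD104, SNORD3A and SNORD14E) and 5 did not pass. All rows summed to 576, 577 and 559 reads in Ctrl and 976, 1013 and 941 in MTA1. SNORD99, in SNHG12, had 103, 105 and 108 reads in Ctrl and 158, 168 and 131 in MTA1 (0.58 ± 0.12, adjusted p = 0.00033), close to the 0.70 ± 0.051 of its host. SNORD104, in SNHG25, had 50, 46 and 61 reads in Ctrl and 105, 114 and 81 in MTA1 (0.98 ± 0.17, adjusted p = 4.3e-05), beside 0.85 ± 0.24 for SNHG25.

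Some snoRNA rows in other hosts had fewer reads. SNORA73B and SNORD60 are among those that reached the filter through MTA1 alone, so their reads are given as a description, with no fold change or test. SNORA73B, in SNHG3, had 7, 9 and 13 reads in Ctrl and 42, 43 and 52 in MTA1. Its near-identical copy SNORA73A, which overlaps an annotated SNHG3 exon, had no row. The split of reads among SNORA73A, SNORA73B and SNHG3 is thus uncertain. SNORD60, in SNHG19, had 4, 4 and 2 reads in Ctrl and 11, 17 and 18 in MTA1. SNORD12C, in ZFAS1, had 4, 3 and 5 reads in Ctrl and 9, 8 and 13 in MTA1 and was not tested. The 5 snoRNAs with most reads inside members are given from GRCh38 (GENCODE 29) with the C box TGATGA, the D box CTGA and the 3′ ACA in capitals where found. SNORD99 has no exact TGATGA.
SNORD99: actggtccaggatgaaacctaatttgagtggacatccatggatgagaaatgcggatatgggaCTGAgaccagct
SNORD104: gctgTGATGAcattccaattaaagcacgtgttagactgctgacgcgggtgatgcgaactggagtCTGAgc
SNORD60: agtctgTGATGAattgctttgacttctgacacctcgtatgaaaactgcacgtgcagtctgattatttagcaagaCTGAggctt
SNORD12C: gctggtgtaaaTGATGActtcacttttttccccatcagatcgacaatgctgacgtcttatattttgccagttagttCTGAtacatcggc
SNORA73B: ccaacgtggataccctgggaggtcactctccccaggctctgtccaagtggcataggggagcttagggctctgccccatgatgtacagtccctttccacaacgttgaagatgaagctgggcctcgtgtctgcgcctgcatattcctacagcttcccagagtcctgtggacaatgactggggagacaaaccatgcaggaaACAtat

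They lie at chr1:28578749-28578822 (SNORD99, minus strand), chr17:64146083-64146152 (SNORD104, plus), chr16:2155023-2155105 (SNORD60, minus), chr20:49278940-49279028 (SNORD12C, plus) and chr1:28508559-28508762 (SNORA73B, plus). By GENCODE position, 10 snoRNAs inside members had any read, and the most was 773 over the 6 libraries, for SNORD99. All 10 lie in host introns. No snoRNA that overlaps an annotated exon of its host had a row. The snoRNAs that GENCODE places in SNHG1 all overlap its exons, and none had a row with reads. A missing row does not show that a snoRNA was absent, and its reads may have been counted elsewhere or not at all.

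**Figure D4:**
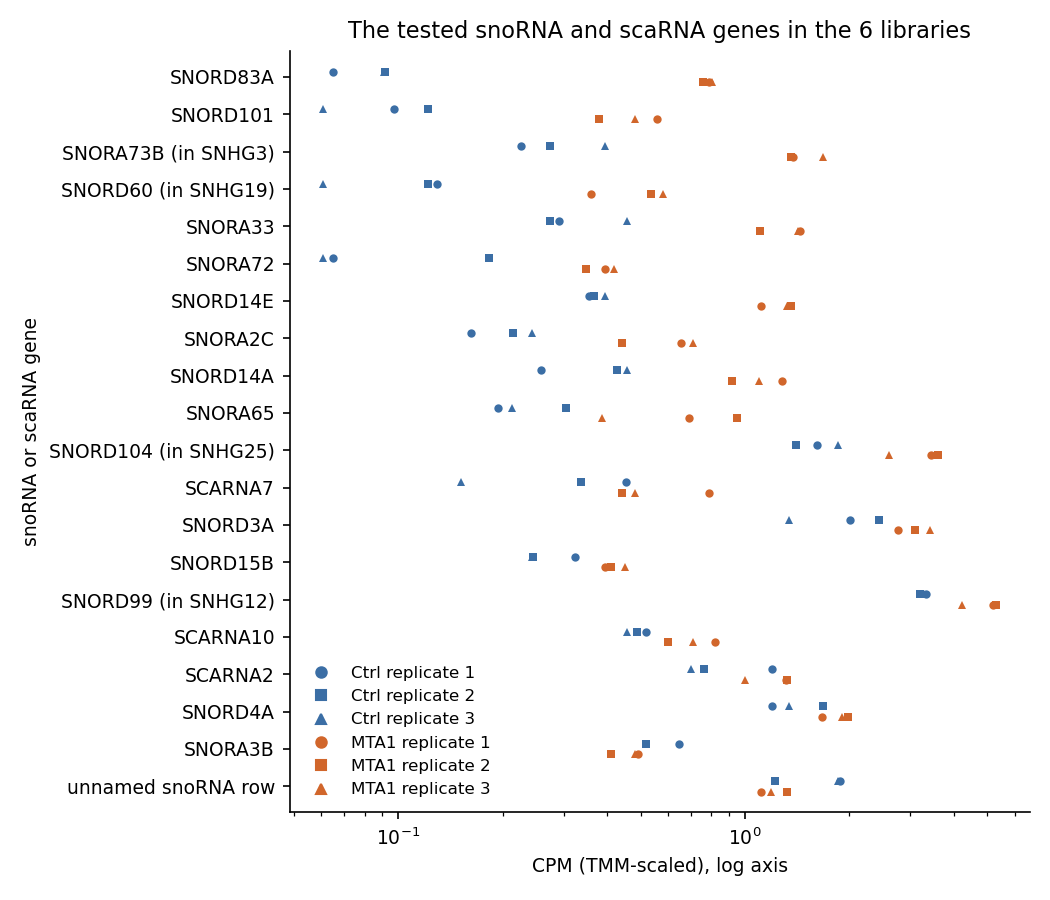
CPM (TMM-scaled, log axis) of the 20 tested snoRNA and scaRNA rows in each library, ordered by log2 fold change from the highest at the top, with the host named where it is a member. Only 9 of the rows reached the filter on low counts in both groups; of these, SNORD99 had 3.21 to 3.33 CPM in Ctrl and 4.22 to 5.30 CPM in MTA1, and the other 11 were kept by their MTA1 libraries.

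The proteins that package snoRNAs did not follow a common direction. Of 20 genes for snoRNP core proteins and their assembly factors, 9 rose and 8 fell (85.0% called, against 58.1% of all tested genes, median 0.06). The 8 became 5 without Ctrl replicate 1 or MTA1 replicate 2, and 4 with library size only. NOLC1, a nucleolar chaperone of snoRNPs (0.32 ± 0.039), RUVBL1, an ATPase of their assembly (0.29 ± 0.039), and NOP56, a C/D core protein (0.32 ± 0.044), rose. NHP2, an H/ACA core protein (-0.32 ± 0.041), and the assembly factor ZNHIT3 (-0.40 ± 0.058) fell. Of 24 NMD factors, 10 rose, 2 fell and 12 did not pass (median 0.10), a smaller share called than the 58.1% of all tested genes. Higher were 41.7%, against 29.5% of all tested genes, and lower 8.33%, against 28.6%. The 2 that fell ranged from 1 to 4 with a library left out. The termination factor gene GSPT1 (0.33 ± 0.039), SMG5 (0.34 ± 0.042) and UPF3A (0.29 ± 0.039) rose, while MAGOHB, of the exon junction complex (-0.20 ± 0.041), and UPF3B (-0.12 ± 0.045) fell, the latter not when Ctrl replicate 1 or 3 or MTA1 replicate 1 or 3 was left out.

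Other genes next to members moved with their host in some cases and against it in others. RPS2, back to back with SNHG9, fell (-0.46 ± 0.041), and MATR3 (0.34 ± 0.040) and SIL1 (0.34 ± 0.042), which overlap SNHG4, rose. GLRX5 fell (-0.44 ± 0.047) where SNHG10 on its opposite strand rose, and ACAA2 fell (-0.44 ± 0.049) where the divergent SNHG22 rose. TRAF7, divergent to SNHG19, fell (-0.27 ± 0.042), and so did SEC14L1, which overlaps SNHG20 (-0.17 ± 0.047). SNRPN (-0.11 ± 0.045) and UBE3A (-0.17 ± 0.071), which overlap SNHG14, fell with it, but these 2 calls were lost in most alternatives, and that of SEC14L1 with library size only. Clone-named genes that overlap members differed among themselves. XXbac-BPG254B15.11, on the strand of SNHG32 (-0.04 ± 0.068), and RP11-701H24.9, on the strand of SNHG14 (0.61 ± 0.38), did not pass. RP11-886H22.1, opposite SNHG22, was not tested. RP11-666A8.13, opposite SNHG16, had 1.45 ± 0.174 CPM in Ctrl and 0.225 ± 0.0561 CPM in MTA1, beside 61.6 and 47.4 CPM for SNHG16. These were 42, 54 and 44 reads in Ctrl and 6, 6 and 9 in MTA1. It reached the filter on low counts through its Ctrl libraries alone, so no fold change or test is given. RP11-752G15.7, on the strand of SNHG21, rose from 0.711 ± 0.173 to 2.37 ± 0.161 CPM (1.73 ± 0.20), beside 13.0 and 11.1 CPM for SNHG21. MYO1G, a myosin gene listed as a neighbour of SNHG15, fell (-1.05 ± 0.065) where SNHG15 rose. In GENCODE it neither overlaps SNHG15 nor starts back to back with it. The sources used here do not give the strand setting of the counting, and reads of overlapping pairs may be mixed.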

How the data were processed

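The labels describe stranded total RNA libraries (Takara SMARTer) of PC-3 cells, from TRIzol extraction with DNase I, sequenced on a NovaSeq. The authors deposited whole-number read counts per gene without normalization, and FPKM, which the authors corrected for depth and gene length (29969 of the 30651 genes). Not given in the sources used here are the aligner, counter, strand setting, build and annotation. DESeq2 appears in the submitters' processing notes, with no stated role. Columns named shMTA1 were assigned by name to the MTA1 samples and those named NC, by elimination, to Ctrl.

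Counts were filtered with filterByExpr (15423 genes kept), scaled by TMM and tested in edgeR 4.0.16 (R 4.3.3) by the 2-sided quasi-likelihood F test, fitting group alone; p-values were adjusted by Benjamini-Hochberg over the 15423 genes. The biological coefficient of variation was 4.45%, and squared differences were 3.22 to 9.01 times counting noise between replicates and 88.2 to 96.2 times between groups. Alternatives used DESeq2 1.42.0, limma 3.58.1, other scalings and filters, and each library left out in turn. The scripts were tested on simulated data.

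Members, lists and tests were chosen with earlier results of these data known. Every tested member is given, those past the threshold at 10 CPM or more with each library's value, and from each list up to 3 genes with the smallest p in the main direction and up to 2 in the other. Coordinates, neighbours and sequences come from RefSeq GRCh38.p14 and GENCODE 29, not from the deposited files.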

Additional observations from a re-analysis of the deposited data

How the results depend on the processing

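Of the 20 members called, 16 were called in the same direction under each of the 17 alternatives (all 12 that rose, and SNHG30, SNHG16, SNHG29 and SNHG6), and none reversed. Of 491 member values under the alternatives, 471 kept their side of the threshold, 13 no longer passed and 7 newly passed; of 825 for other named genes, 783, 39 and 3. On log2(FPKM + 0.1) and log2(FPKM + 1), tested with limma, SNHG14, SNHG26, SNHG21 and ZFAS1 were not called, which left 4 and 4 members lower, 7 and 7 protein-coding hosts, 4 and 4 snoRNP genes and 1 and 1 NMD factors lower; the median was 0.084 and 0.066 for members and -0.34 and -0.34 for ribosomal protein genes. With library size only, the median was 0.087 for members and -0.34 for ribosomal protein genes, with SNHG4 added and SNHG21 and ZFAS1 lost (13 members higher, 6 lower), 4 ribosomal protein genes higher and 4 snoRNP genes and 1 NMD factor lower. With the 1 CPM filter the members' median was 0.083 and EPB41L4A-AS1 passed as lower (adjusted p = 0.045). Without mitochondrially encoded genes, members took 0.159% (Ctrl) and 0.170% (MTA1) of reads, and ribosomal protein genes 14.7% and 11.2%. The causes were not tested. Leaving out each library, the members' median ranged from -0.015 to 0.048 with 12 to 13 higher and 7 to 8 lower, the ribosomal protein median from -0.44 to -0.38, snoRNP genes lower from 5 (without Ctrl replicate 1 or MTA1 replicate 2) to 8, and NMD factors lower from 1 (without Ctrl replicate 1 or 3) to 4 (without Ctrl replicate 2 or MTA1 replicate 2). Deviations of same-numbered libraries from their group means had correlations of -0.0207 to 0.0666. With 3 libraries per group, these cannot show whether such libraries shared a culture or preparation. With the replicate number as a block in edgeR, 13 members were higher and 8 lower, SNHG4 (0.15, adjusted p = 0.044) being added. Depth limits SNHG9, SNHG25 and SNHG31, at no more than 51 reads per library. The FPKM alternatives cannot decide on SNHG14, whose FPKM of 0.03 in Ctrl and 0.02 in MTA1 lie below the added constants.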
